A study of Homo sapiens with 6 samples.

Results

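The 5 genes described here encode 4 connexins of stratified epithelium, GJA1, GJB2, GJB5 and GJB6, and the water and glycerol channel AQP3. They were picked by gene symbol in the deposited expression table, and all 5 were present among its 16536 genes. All libraries came from SCC4, a long-established line of human tongue squamous carcinoma cells. In 3 of them the RNA was from sphere cells, obtained in suspension culture and named by the submitters as cancer stem cells, and these were set against 3 libraries of parental cells, which grew attached. Both groups share the cell line, and no genotype change, drug or time point is stated for either. Nothing states that replicates came from different cultures, so p-values measure only how far these libraries spread, and that spread may be technical.

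Connexins are membrane proteins that assemble into hemichannels. Hemichannels of adjacent cells dock into gap junction channels, through which ions and small metabolites pass. In stratified epithelium several connexins overlap, with Cx43 (GJA1) common in basal and spinous layers, and Cx26 (GJB2), Cx30 (GJB6) and Cx31.1 (GJB5) varying with differentiation and repair. Mutations of GJB2 and GJB6 cause hearing loss and skin disease. AQP3 is the main aquaglyceroporin of keratinocytes, carries water, glycerol and hydrogen peroxide, and is known for its part in skin hydration.

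Values are normalised expression units, which the authors named TPM, a measure scaled by transcript length. That scaling is taken from the name, since the quantifier is not given in the sources used here, and every order of levels, sum or share over different genes rests on it. Column totals ran from 1007357 to 1134102 units in sphere libraries and from 885258 to 1007523 units in parental libraries. The depth in reads is unknown, and low values moved in steps of 0.873 to 1.14 units. All 12 squamous epithelial markers were above 1 unit in every library. That is a low bar, since 15034 of 16536 genes reached 1 unit in 3 or more libraries, and it does not identify the cell type. The summed level of the 12 markers was 27300 to 28840 units in sphere libraries and 7349 to 7981 units in parental libraries. KRT5 and KRT14 made up most of it in sphere cells, with means of 11779 and 10484 units. By the test described below 8 were higher and 2 lower in sphere cells, against 25.8% and 22.9% of all genes tested. With quantile normalization 6 were higher, against 3526 of all 15034 genes tested. With equal column totals 7 were higher, against 2285 of 15047. In bulk RNA, more cells of a type and more RNA per cell cannot be told apart. Erythroid markers summed to 1203 units in sphere replicate 2 and to 1909 and 1264 units in parental replicates 2 and 3, against at most 1.18 units in the other 3 libraries. In sphere replicates 1 and 3 all 7 of these genes were above 0 but under 1 unit. By limma, 0 of the 6 tested were called, and 0 had an unadjusted p under 0.05. The 3 fibroblast markers with values, COL1A1, COL1A2 and LUM, summed to 25.2 to 30.3 units in sphere libraries and 7.53 to 9.77 units in parental libraries, with LUM rising and COL1A1 falling. LUM was at 1 rounding step in the parental libraries, 0.873 to 1.01 units. The COL1A1 call was lost with the replicate block (limma adjusted p = 0.0829), without parental replicate 1 (0.0803) or 2 (0.0744) and without sphere replicate 1 (0.0799) or 2 (0.0639). The endothelial marker CDH5 was at 2.33 to 4.03 units in sphere libraries and 3.76 to 5.36 units in parental libraries and was not called. Of 2 leukocyte markers tested, CD14 rose and CD68 was not called, and the 3 with values summed to 89.9 to 97.6 units in sphere libraries and 69.8 to 84.3 units in parental libraries. The part of any of these marker lists in the results was not tested, apart from the values without the libraries with erythroid transcripts given below.

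All 5 genes were higher in sphere cells, and for each of them the lowest sphere value lay above the highest parental value. GJB6 and AQP3 were about an order of magnitude higher, GJA1 was between them and the others, and GJB2 and GJB5 had the smallest changes. The test was limma on log2(value + 1), two-sided, over the 15034 genes that reached 1 unit in 3 or more libraries, with Benjamini-Hochberg adjustment and a threshold of 0.05. The comparison as a whole was wide. It called 48.7% of tested genes, 25.8% as higher and 22.9% as lower, and 37.6% had all sphere values above all parental values. That last share takes in genes at 1 rounding step in every library, such as AQP1. The lowest sphere step, 1.0093 units, lay just above the highest parental step, 1.0089 units. Of the called genes 53% were higher as deposited, 37.7% with columns brought to equal totals and 42.9% without mitochondrially encoded genes. A rise that passed the test was therefore common, and the sizes of the changes say more about these genes than their calls. Only 8.09% of tested genes were called higher with a log2 fold change of at least 1, and GJA1, GJB2, GJB6 and AQP3 were among them while GJB5 was not. GJB2 passed that size narrowly, at 1.03, and was under it with equal column totals (0.87), without mitochondrially encoded genes (0.93), without parental replicate 3 (0.99) and without sphere replicate 3 (0.98). By log2 fold change GJB6 ranked 36th, AQP3 40th, GJA1 336th, GJB2 1196th and GJB5 1789th of the 15034 genes.

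**Figure D1:**
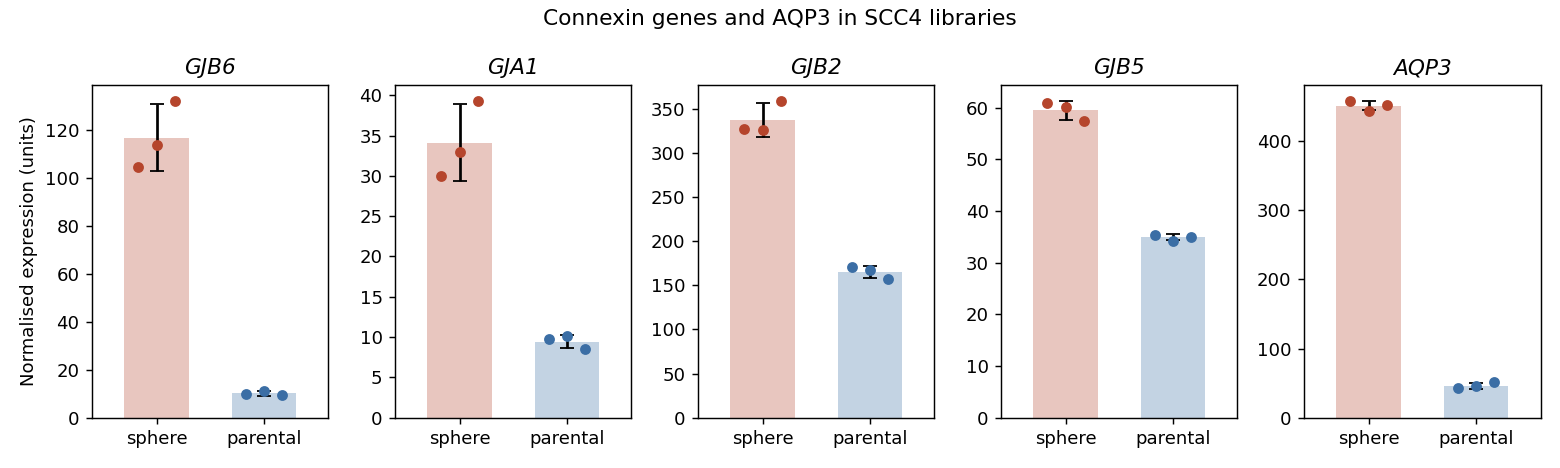
Normalised expression in units (vertical axis, starting at 0, its own scale in each panel) of GJB6, GJA1, GJB2, GJB5 and AQP3 in sphere libraries (red) and parental libraries (blue), with points for single libraries, bars for means and error bars for SD (n = 3 each). In every panel the sphere points lie above the parental points, with means of 117 against 10.1 units for GJB6 and 59.5 against 34.9 units for GJB5.

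GJB6 (ENSG00000121742) encodes Cx30, a beta connexin of the inner ear, hair follicle and suprabasal keratinocytes. It stood at 104, 114 and 132 units in sphere replicates 1 to 3, against 9.73, 11.1 and 9.43 units in parental replicates 1 to 3. The parental libraries lay within 2 rounding steps of each other, and the sphere libraries spread more widely, with replicate 3 highest. The means were 117 ± 14.1 units in sphere cells and 10.1 ± 0.884 units in parental cells (SD, n = 3 each), a ratio of 11.6. The log2 fold change was 3.41 (SE 0.103, 95% interval 3.15 to 3.66, limma adjusted p = 9.45e-06). Among all genes of the table, its mean ranked 1312th in sphere cells and 8248th in parental cells.

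GJB2 (ENSG00000165474) encodes Cx26, the closest relative of Cx30 among the 4 and a gene of wound-edge and hyperproliferative epidermis. It was at 327, 326 and 359 units in sphere replicates 1 to 3 and at 170.2, 167 and 157 units in parental replicates 1 to 3. It was thus already the highest connexin of the parental cells, and the 2 groups did not overlap. Its mean was 337 ± 18.9 units in sphere cells and 165 ± 7.05 units in parental cells (SD, n = 3 each), with a log2 fold change of 1.03 (SE 0.0579, 95% interval 0.88 to 1.17, limma adjusted p = 6.65e-05). Expressed over GJB2 in the same library, GJB6 was at 0.320, 0.349 and 0.368 in sphere replicates and 0.0571, 0.0662 and 0.0601 in parental replicates. The ratio was thus higher in each sphere library than in any parental library. The exact two-sided permutation test of that log ratio gave p = 0.1, the smallest that 3 libraries against 3 allow.

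The sequence before the GJB2 start is shown because its window holds GC boxes, while the window of its neighbour GJB6 holds none. The part of such words in the changes of either gene was not tested. GC boxes, searched as GGGCGG on both strands, are sites of SP/KLF family factors. The stretch lies at chr13:20193011-20193102 on the minus strand of GRCh38.p14 (RefSeq), from base 164 to base 73 before the annotated start, with the 3 GC boxes in capitals.
GJB2 GC boxes: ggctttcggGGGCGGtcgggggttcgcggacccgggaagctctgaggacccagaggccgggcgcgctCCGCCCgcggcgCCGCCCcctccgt
Of 35116 RefSeq windows of 250 bases before a gene start, 42.6% held GGGCGG on either strand. The GJB6 window held 0 matches to it, to the AP-1 word TGANTCA or to the TATA word TATAAA, but GJB6 has 15 annotated GENCODE 29 transcripts and the most upstream of them starts 1417 bases earlier, so that window is only 1 of several starts. A match or its absence describes these letters and shows no binding.

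GJA1 (ENSG00000152661) encodes Cx43, the most widely expressed connexin of human tissues. It stood at 30.0, 33.0 and 39.3 units in sphere replicates 1 to 3, against 9.76, 10.1 and 8.48 units in parental replicates 1 to 3. The groups did not overlap, and sphere replicate 3 was again the highest. Means were 34.1 ± 4.75 units in sphere cells and 9.44 ± 0.846 units in parental cells (SD, n = 3 each), a ratio of 3.61 and a log2 fold change of 1.74 (SE 0.115, 95% interval 1.46 to 2.03, limma adjusted p = 0.000116). GJA1 has a processed pseudogene, GJA1P1. Of 3103 windows of 50 bases, the read length, along its longest coding transcript in GENCODE 29, 6.28% also occurred in GJA1P1, so a small part of its reads could be split by the authors' counting, while the longest coding transcripts of GJB2, GJB5, GJB6 and AQP3 shared 0 such windows with another gene.

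The GJA1 sequence is shown because its window, unlike those of GJB2, GJB6 and AQP3, holds the AP-1 word TGANTCA, which reads the same on both strands and is bound by FOS and JUN dimers. The stretch is chr6:121435587-121435616 on the plus strand of GRCh38.p14 (RefSeq), from base 59 to base 30 before the annotated start, with the match in capitals.
GJA1 AP-1 word: ctcctcccagtTGAGTCAgtggcttgaaac
The word occurred in 6.57% of the 35116 windows, and the GJA1 window held 0 GC boxes and 0 TATA words. The match did not overlap another of the searched words. GJA1 also has an annotated GENCODE transcript that starts 69 bases before the start used here. The match, at base 48, is upstream of the start used here but downstream of that earlier one.

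GJB5 (ENSG00000189280) encodes Cx31.1, a connexin largely restricted to stratified epithelia. It was at 61.0, 60.2 and 57.5 units in sphere replicates 1 to 3 and at 35.5, 34.3 and 35.0 units in parental replicates 1 to 3. Here sphere replicate 3 was the lowest of its group, the opposite of GJB6, GJB2 and GJA1, and the parental values were nearly level. With means of 59.5 ± 1.83 units in sphere cells and 34.9 ± 0.591 units in parental cells (SD, n = 3 each), its log2 fold change was 0.75 (SE 0.0396, 95% interval 0.66 to 0.85, limma adjusted p = 5.22e-05). GJB5 had the smallest change of the 5 genes and, with it, the narrowest interval.

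AQP3 (ENSG00000165272) stood at 458, 444 and 453 units in sphere replicates 1 to 3, against 42.4, 45.4 and 51.1 units in parental replicates 1 to 3. The groups did not overlap, and the sphere libraries were nearly level, with replicate 3 not the highest as it was for GJB6 and GJA1. The means were 452 ± 6.95 units in sphere cells and 46.3 ± 4.41 units in parental cells (SD, n = 3 each), a ratio of 9.75. The log2 fold change was 3.26 (SE 0.0713, 95% interval 3.09 to 3.44, limma adjusted p = 3.85e-06). Its mean ranked 279th among all genes of the table in sphere cells and 3318th in parental cells.

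The AQP3 window is shown for its TATA word and its dense GC boxes, a layout that the other windows lack. It is on the minus strand of GRCh38.p14 (RefSeq). The first stretch, chr9:33447638-33447724, runs from base 131 to base 45 before the annotated start, and the second, chr9:33447608-33447637, from base 44 to base 15, with GC boxes or the TATA word in capitals.
AQP3 GC boxes: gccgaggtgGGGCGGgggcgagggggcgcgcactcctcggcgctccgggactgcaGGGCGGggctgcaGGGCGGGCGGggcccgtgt
AQP3 TATA word: ctccagcgctccTATAAAgggagccaccag
The window held 4 GC box matches, of which the last 2 overlap by 2 bases, and 1 TATA word, a word found on either strand in 10.7% of the 35116 windows. AQP3 also has an annotated GENCODE transcript that starts 40 bases before the start used here. The TATA word, at base 32, is upstream of the start used here but downstream of that earlier one. The GC boxes lie upstream of both. The RefSeq windows used here held none for GJB5, so it was not searched and its sequence is not shown.

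Set side by side within a group, the order of levels differed between the cultures. In sphere cells AQP3 was highest, followed by GJB2, GJB6, GJB5 and GJA1, and no 2 neighbours in that order overlapped. In parental cells the order was GJB2, AQP3, GJB5, GJB6 and GJA1, and GJB6 and GJA1 overlapped, at 9.43 to 11.1 and 8.48 to 10.1 units. Of the 10 pairs of these genes, the log ratio within a library differed between the groups at the smallest possible exact permutation p, 0.1 (0.111 after Benjamini-Hochberg adjustment over the 10 pairs), for 9. The exception was GJB6 over AQP3, at 0.228, 0.256 and 0.292 in sphere replicates and 0.229, 0.244 and 0.185 in parental replicates (exact permutation p = 0.3, adjusted 0.3). No pair could pass 0.05 in this design.

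The scaling of the libraries moved all of these values together. The median log2 fold change of all tested genes was 0.0447 as deposited and -0.0947 with equal column totals. Relative to the median under each scaling, GJB6 was 3.36 and 3.35 higher on the log2 scale, AQP3 3.22 and 3.20, GJA1 1.70 and 1.69, GJB2 0.98 and 0.96, and GJB5 0.71 and 0.69. Leaving out the libraries with erythroid transcripts leaves sphere replicates 1 and 3 against parental replicate 1. The log2 differences were then 3.47 for GJB6, 3.39 for AQP3, 1.72 for GJA1, 1.004 for GJB2 and 0.72 for GJB5. With 1 parental library the spread came from the 2 sphere libraries alone, so no p-value of that comparison is used.

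Of the 17 other human connexin genes, 7 had values and 5 passed the filter on low values, and 3 of these rose and 0 fell, against 25.8% higher and 22.9% lower over all genes tested. Their median log2 fold change was 0.36, against 0.0447 over all genes tested. With equal column totals, and without mitochondrially encoded genes, 2 of 6 tested rose, against 2285 of 15047 and 2397 of 15581 genes. One of the 3 was GJA9, a low-expressed alpha connexin at 1.04, 1.14 and 1.01 units in sphere replicates and listed at 0 in the parental libraries. That level is a single rounding step, which is above 1 unit in each sphere library but under it in parental replicates 1 and 3. GJA9 thus passed the filter through the sphere libraries alone, and a gene at 1 step in the parental libraries alone would not pass. With any 1 sphere library left out, 4 of these connexins were tested and 2 rose, against 2927 to 2998 of 14181 to 14237 genes. Without GJA9, the median of the remaining 4 genes was 0.14. GJC1, the vascular and cardiac Cx45, averaged 5.62 ± 0.876 units in sphere cells and 5.97 ± 0.282 units in parental cells and was not called (limma adjusted p = 0.569). GJA3, the lens connexin Cx46, averaged 2.47 ± 0.558 units in sphere cells and 3.45 ± 0.386 units in parental cells and was not called (limma adjusted p = 0.0769), but was lower with quantile normalization (adjusted p = 0.00969) and without sphere replicate 1 (0.0272).

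**Figure D2:**
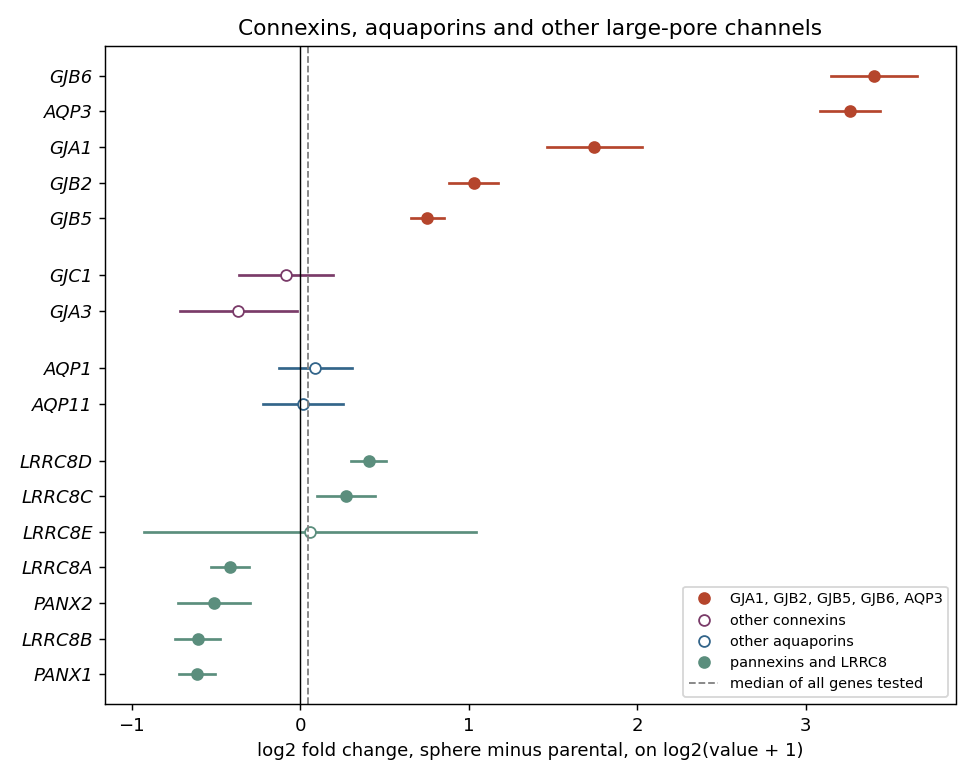
Log2 fold change, sphere minus parental, on log2(value + 1) (horizontal axis), with 95% limma intervals, for the 5 genes (red), other connexins (purple), other aquaporins (blue) and pannexins and LRRC8 channels (green). Filled points passed an adjusted p of 0.05 and open ones did not, the dashed line is the median of all genes tested, 0.0447, and not every gene of each list is drawn. GJB6 and AQP3 lie at 3.41 and 3.26, while PANX1 and LRRC8B lie at -0.61.

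Added over the 11 connexins with values, the transcripts came to 613, 616 and 679 units in sphere replicates 1 to 3 and to 301, 287 and 282 units in parental replicates 1 to 3. Every sphere sum exceeded every parental sum, with means of 636 ± 37.1 units in sphere cells and 289.9 ± 9.75 units in parental cells (SD, n = 3 each), a ratio of 2.19 (exact two-sided permutation p = 0.1, the smallest possible). GJB2 made up 49.8% of the difference of 346 units and GJB6 30.8%, while GJA1 and GJB5 made up 7.13% and 7.12%. As a share of the sum, GJB6 was 18.3 ± 1.22% in sphere cells and 3.48 ± 0.332% in parental cells. GJA1 was 5.35 ± 0.449% in sphere cells and 3.26 ± 0.248% in parental cells. The shares of the genes that changed less were lower, with GJB2 at 53.0 ± 0.214% in sphere cells and 56.9 ± 1.29% in parental cells. The mean share in sphere cells minus that in parental cells was -2.65 percentage points for GJB5. For each of these 4 shares the groups did not overlap (exact two-sided permutation p = 0.1, n = 3 each), the smallest p this design allows.

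**Figure D3:**
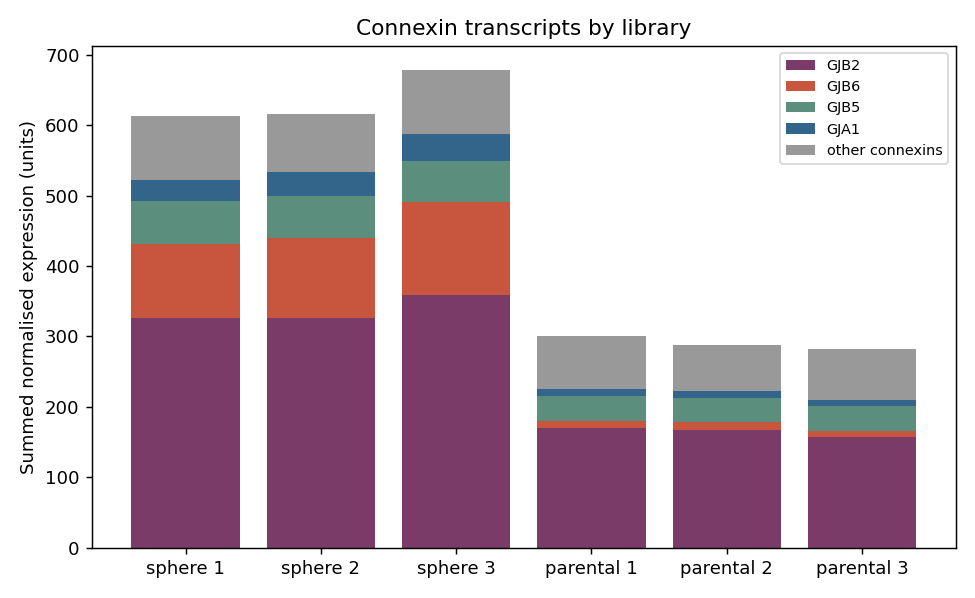
Summed normalised expression of connexin genes in units (vertical axis) in each sphere and parental library, stacked by gene, with 7 genes joined as other connexins. The sphere bars reach 613 to 679 units and the parental bars 282 to 301 units, and the GJB6 segment is 104 to 132 units in sphere libraries and 9.43 to 11.1 units in parental libraries.

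Among the 13 other aquaporin genes, AQP1 and AQP11 had values, and neither was called. AQP1, the water channel of red cells and endothelium, was at 1.04, 1.14 and 1.01 units in sphere replicates and 0.873, 1.01 and 0.941 units in parental replicates, a single rounding step in each library (limma adjusted p = 0.44). AQP11, an intracellular aquaporin, averaged 3.18 ± 0.200 units in sphere cells and 3.14 ± 0.380 units in parental cells, with a log2 fold change of 0.02 and a 95% interval of -0.22 to 0.25 (limma adjusted p = 0.893). AQP3 was the highest of the 3 aquaporins with values in every library.

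Pannexins and LRRC8 proteins form other large-pore channels, known for ATP release and the regulation of cell volume. Of 7 tested members, 4 fell and 2 rose, against 22.9% lower and 25.8% higher over all genes, and the median log2 fold change was -0.42, against 0.0447 over all genes. PANX1, the widely expressed ATP-release channel, was at 41.3, 40.9 and 44.4 units in sphere replicates and 65.6, 64.5 and 65.2 units in parental replicates (log2 fold change -0.61, SE 0.04, limma adjusted p = 0.00015). LRRC8A, the obligatory subunit of volume-regulated anion channels, averaged 60.2 ± 2.31 units in sphere cells and 80.8 ± 2.72 units in parental cells and fell by 0.42 on the log2 scale. Its partner subunit gene LRRC8B fell by 0.61, and LRRC8D rose by 0.40. The rise of LRRC8D was not called with equal column totals (limma adjusted p = 0.0634). There 4 members fell and 0 rose, against 3775 lower and 2285 higher of 15047 genes.

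Of 17 genes whose products bind, assemble or degrade Cx43, 9 fell and 2 rose, against 22.9% lower and 25.8% higher over all genes tested. Their median log2 fold change was -0.31, against 0.0447 over all genes. The count of falls was 9 in each alternative with at least 2 libraries per group. With equal column totals, and without mitochondrially encoded genes, 1 rose, against 2285 of 15047 and 2397 of 15581 genes. There the call of UBQLN4, a protein turnover gene named here after its values were seen, was lost (limma adjusted p = 0.272 and 0.169). TJP1, the ZO-1 scaffold that binds the Cx43 tail at plaque edges, averaged 30.6 ± 1.45 units in sphere cells and 61.1 ± 0.521 units in parental cells (log2 fold change -0.97, limma adjusted p = 3.32e-05). EZR, the membrane-actin linker ezrin, averaged 351 ± 5.86 units in sphere cells and 624 ± 43.8 units in parental cells, and CDH1, the adhesion protein E-cadherin, averaged 108 ± 2.75 units in sphere cells and 153 ± 2.92 units in parental cells. CAV1, the caveolar coat protein caveolin-1, went the other way, at 1024, 989 and 1031 units in sphere replicates and 409, 401 and 428 units in parental replicates (log2 fold change 1.30, limma adjusted p = 1.84e-05). GJA1 transcript and the transcripts of 9 of these 17 partners thus differed in opposite directions between the same libraries.

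Of 9 kinase genes whose products phosphorylate Cx43, 2 rose and 4 fell, with a median log2 fold change of -0.19. Over all genes tested 25.8% rose and 22.9% fell, so the share of kinases that rose was near that of all genes. MAPK3, the ERK1 gene, averaged 55.0 ± 3.66 units in sphere cells and 28.3 ± 1.77 units in parental cells (limma adjusted p = 0.000182), and PRKCD, the protein kinase C delta gene, rose by 0.79 on the log2 scale. CSNK1D, a casein kinase 1 gene, fell by 0.28. The count of falling kinases was 5 with quantile normalization. It was 1 without sphere replicate 1, without sphere replicate 3 or with those averaged. It was 2 without sphere replicate 2, without parental replicate 1 or 3, without the limma trend, without mitochondrially encoded genes and with the replicate block. Over all 15034 genes tested, 2840 were lower with the replicate block and 4029 with quantile normalization.

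Lists for the cargo of AQP3 were read next. Of 11 tested glycerol handling genes, 4 rose and 3 fell, shares not far from the 25.8% and 22.9% of all genes, with a median log2 fold change of -0.02. GPD1, named here after its values were seen, was at 0.873 to 1.01 units in parental libraries and 0 in sphere libraries. It did not pass the filter on low values. With no filter 4 of 12 rose and 4 fell, against 3811 higher and 3514 lower of 16536 genes. GPD2, the mitochondrial glycerol-3-phosphate dehydrogenase, averaged 78.7 ± 4.88 units in sphere cells and 46.2 ± 0.809 units in parental cells (limma adjusted p = 0.000154). The GPD1-like gene GPD1L rose by 1.05 on the log2 scale. GK, the kinase that phosphorylates glycerol, averaged 2.81 ± 0.435 units in sphere cells and 6.92 ± 0.272 units in parental cells (log2 fold change -1.06, limma adjusted p = 0.000449), and MGLL, which releases glycerol from monoglycerides, fell by 1.15. Of 14 tested genes that make or remove hydrogen peroxide, 8 rose and 0 fell, against 25.8% and 22.9% of all genes. Their median log2 fold change was 0.57. With equal column totals 6 rose and 1 fell, against 2285 higher and 3775 lower of 15047 genes. CAT, catalase, averaged 560.1 ± 9.18 units in sphere cells and 229.8 ± 19.2 units in parental cells. SOD2, the mitochondrial superoxide dismutase, averaged 305 ± 12.8 units in sphere cells and 86.2 ± 19.2 units in parental cells. The glutathione peroxidase gene GPX2 and the peroxide-producing oxidase gene DUOX1 had log2 fold changes of 2.16 and 0.66 (limma adjusted p = 0.000534 and 0.000293). PRDX4, named here after its values were seen, averaged 143 ± 17.1 units in sphere cells and 318 ± 134 units in parental cells, without overlap. It was not called (limma adjusted p = 0.0523). It was called lower with equal column totals (0.0383), without mitochondrially encoded genes (0.044), without parental replicate 1 (0.00119) and among genes averaging at least 5 units (0.0421).

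Connexin hemichannels can release ATP, and a list of ATP and adenosine receptors and ectonucleotidases was read beside them. Of 13 tested members, 6 rose and 2 fell, against 25.8% and 22.9% of all genes, with a median log2 fold change of 0.40. P2RY6, a nucleotide receptor that prefers UDP, was at 8.27, 9.06 and 8.07 units in sphere replicates and 0.873, 1.01 and 0.941 units in parental replicates, which is 1 rounding step (limma adjusted p = 1.38e-05). P2RX5, an ion channel receptor of differentiating keratinocytes, averaged 16.2 ± 0.977 units in sphere cells and 5.96 ± 0.819 units in parental cells, and P2RY2, a receptor for ATP and UTP, averaged 19.4 ± 2.80 units in sphere cells and 8.15 ± 0.964 units in parental cells. NT5E, the CD73 enzyme that makes adenosine, averaged 11.6 ± 0.417 units in sphere cells and 27.3 ± 1.72 units in parental cells (log2 fold change -1.17, limma adjusted p = 5.12e-05).

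**Figure D4:**
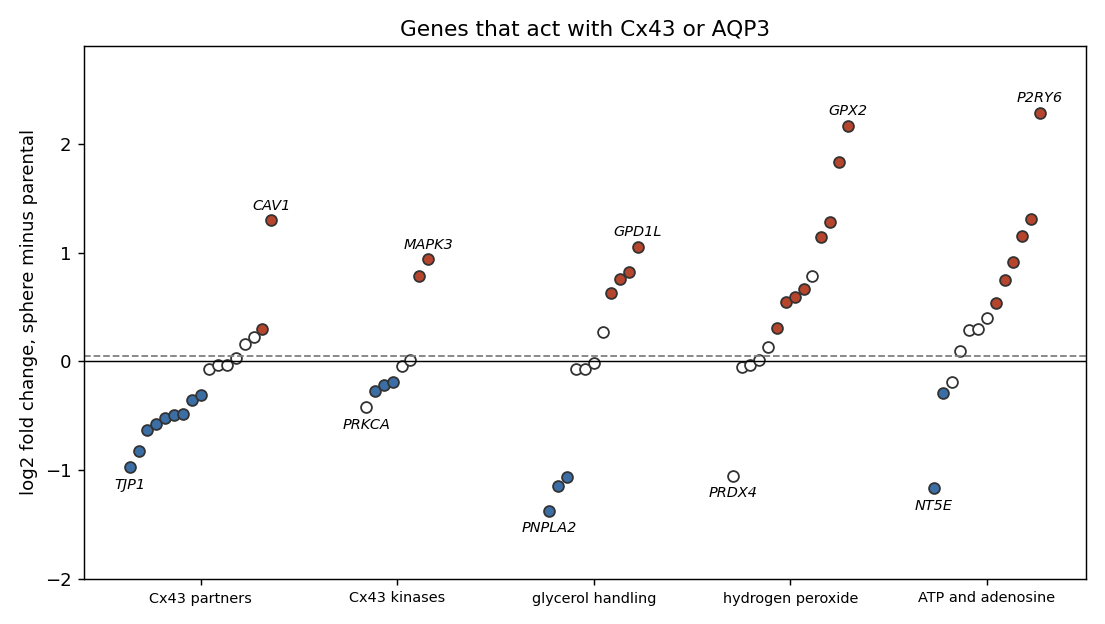
Log2 fold change, sphere minus parental, on log2(value + 1) (vertical axis) of genes in 5 lists, ordered by value within each list. Filled points passed an adjusted p of 0.05 (red higher, blue lower), open points did not, the dashed line is the median of all genes tested, and the lowest and highest gene drawn in each list are named. The Cx43 partners lie mostly below 0, from TJP1 at -0.97 to CAV1 at 1.30.

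Likeness of expression was measured as the distance between log2(value + 1) profiles over the 6 libraries, each centred on its own mean, among genes averaging 5 units or more in whichever group was higher. With 3 libraries in each of 2 groups, this measure rests mainly on the difference between the groups and on depth and scaling that the genes of a library share. The genes nearest to AQP3 among 10445 were ACKR3, VSNL1 and TP73, at distances of 0.185, 0.214 and 0.233 and with Pearson's r of 0.999 each. The scavenger receptor ACKR3 averaged 116 ± 2.62 units in sphere cells and 11.3 ± 0.752 units in parental cells, and TP73, a transcription factor of the p53 family, 33.5 ± 1.23 units in sphere cells and 2.83 ± 0.193 units in parental cells. ACKR3 and TP73 were also among the 3 nearest to GJB6, after the fatty acid desaturase gene SCD. AQP3 itself was the 5th nearest gene to GJB6, and GJB6 the 20th nearest to AQP3. GJA1 was nearest to IZUMO4, ZNF608 and TLR5, GJB2 to SOWAHC, the desmosomal cadherin gene DSC3 and NCK1, and GJB5 to IRF2BP2, RAB1B and NEK6. All of them were higher in sphere cells, which the choice by distance to a risen gene brings about. In the parental libraries IZUMO4 and TLR5 were at 1 rounding step, 0.873 to 1.01 units. GJB5 was the 401st nearest to GJB2, and GJB2 the 843rd nearest to GJB5 and the 470th nearest to GJA1.

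Along the chromosomes, the connexin genes lie in groups, and the genes beside them did not all follow. On chromosome 1, beside GJB5, ZSCAN20 averaged 1.77 units in sphere cells and 2.83 units in parental cells and was not called, and PHC2, a Polycomb gene, fell by 0.18, a call lost with the replicate block (limma adjusted p = 0.0688), without sphere replicate 3 (0.056) and without parental replicate 1 (0.0603). On chromosome 13, GJB2 and GJB6 are adjacent in the table and GJA3 and ZMYM2 lie on the far side of GJB2, where ZMYM2, a zinc finger gene, was not called (limma adjusted p = 0.0509). It was called higher with a pseudocount of 5 (0.0494), among genes averaging at least 5 units (0.0404), with array weights (0.0321) and without parental replicate 2 (limma adjusted p = 0.0292). Beyond GJB6, CRYL1 was at 17.6, 19.2 and 14.1 units in sphere replicates and 10.5, 10.1 and 19.0 units in parental replicates and was not called, but it was called higher without parental replicate 3 (limma adjusted p = 0.0115). IFT88, a ciliary transport gene, fell by 0.63. Beside GJA1 on chromosome 6, MAN1A1, TBC1D32 and HSF2 were not called and SERINC1 fell by 0.42. Beside AQP3 on chromosome 9, CHMP5 fell by 0.30 and NFX1, NOL6 and ANKRD18B were not called. NFX1 was lower with equal column totals (limma adjusted p = 0.0405), and ANKRD18B was higher without sphere replicate 3 (0.0111) and with sphere replicates 1 and 3 averaged (0.0432).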

How the data were processed

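Per the labels' protocols, total RNA was extracted with Trizol and read as single ends of 50 bases on a BGISEQ machine, in 6 libraries grouped by their titles. HISAT and Bowtie2, with no version, and the mouse build GRCm38.p6 are named in the submitters' processing notes, although all gene identifiers are human. Which human build, annotation and quantifier made the values is not given in the sources used here.

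The deposited values, which the authors named TPM, are treated as a signal, a normalised expression value, because column totals differed. The log-scale test planned for TPM was kept. Values under 1e-06 were taken as 0. Genes reaching 1 unit in 3 or more libraries were fitted as log2(value + 1), a scale that understates changes of low genes, with limma 3.58.1 in R 4.3.3 (2 groups, mean trend, two-sided, Benjamini-Hochberg). The procedure was tested on simulated data. Single ratios, shares and sums had exact permutation tests. Errors are SDs over 3 libraries.

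The members and lists were chosen with earlier results of these data known. Named were every member, other connexins and aquaporins of at least 1 unit in either group, up to 4 genes of smallest p per list, the 3 nearest profiles per member and 2 neighbours per side. A few genes that this rule takes in are not reported here, and figures leave them out or join them with others. Neighbour order and sequences came from RefSeq GRCh38.p14, and 50-base windows from GENCODE 29. The 18 alternatives covered pseudocounts, filters, scalings, variance models, a replicate block and libraries left out.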

Additional observations from a re-analysis of the deposited data

How the results depend on the processing

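GJA1, GJB2, GJB5, GJB6 and AQP3 had positive log2 fold changes in each of the 18 alternatives run and were called higher in each of those with at least 2 libraries per group. The other, parental replicate 1 against sphere replicates 1 and 3, takes its spread from 2 libraries alone, and its p-values are not used. Log2 fold changes ranged from 1.43 to 1.84 for GJA1, 0.87 to 1.05 for GJB2, 0.59 to 0.78 for GJB5, 3.01 to 3.52 for GJB6 and 3.10 to 3.39 for AQP3, and the largest limma adjusted p was 0.00427, for GJA1 with the replicate block. The number of genes called, 7315, ranged from 5581 to 7667, and 5790 to 7305 with 1 library left out. Genes called higher, 3875 as reported, numbered 2285 with equal column totals and 2397 without mitochondrially encoded genes. The log2 difference of the summed connexin level, 1.13 as reported, was 0.97 with equal column totals. Mitochondrially encoded genes made up 18.6% to 20.3% of the total in sphere libraries and 15.4% to 16.7% in parental libraries. The part of this in those values was not tested. The shares of the 4 connexins in the summed level moved by less than the spread between replicates in the alternatives run for them, which left out or averaged libraries.

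Whether libraries of the same replicate number belong together is not stated. Deviations of same-numbered libraries from their group means correlated at 0.329, 0.121 and -0.273, and those of differently numbered ones at -0.467 to 0.341. With 3 libraries per group the deviations within a group are tied to each other, so these values cannot decide about pairing. With the number as a replicate block 6176 genes were called, all 5 members among them. The log2 fold changes were then 1.74, 1.03, 0.75, 3.41 and 3.26 for GJA1, GJB2, GJB5, GJB6 and AQP3. Read depth is unknown, so counting error has no interval here, and for GJA1 and GJB6 in parental cells, at 8.48 to 11.1 units, 1 rounding step of 0.873 to 1.01 units is a sizeable part of the value.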
